A study of Saccharomyces paradoxus and Saccharomyces cerevisiae and Nakaseomyces glabratus with 58 samples.

Results

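The small subunit ribosome assembly factors described here are the proteins of the small subunit processome and of the later maturation of the small ribosomal subunit. The set was given as 56 named Saccharomyces cerevisiae genes, and in the 5 other yeasts as every gene whose orthogroup holds one of them. The rule gave 328 genes of the 36369 rows of the 6 count tables: 56 of 6717 in S. cerevisiae, 54 of 6038 in Saccharomyces paradoxus, 59 of 5461 in Candida glabrata, 57 of 5926 in Naumovozyma castellii, 47 of 5318 in Kluyveromyces lactis and 55 of 6909 in Schizosaccharomyces pombe. The 56 genes fall into 55 orthogroups, since UTP5 and UTP9 share 1. The orthogroup of UTP30 also holds CIC1, a large subunit factor, so its rows outside S. cerevisiae are written CIC1/UTP30. These rows are counted with the set, and some may be the CIC1 orthologue.

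The processome assembles on the nascent ribosomal RNA precursor in the nucleolus. Its UtpA and UtpB subcomplexes and the U3 small nucleolar ribonucleoprotein bind first, helicases, a GTPase and RNA-modifying enzymes then act on the particle, and a separate set of factors completes the subunit after the particle has left the nucleolus. In budding yeast these genes belong to the ribosome biogenesis regulon, and many of their promoters carry the PAC and RRPE motifs. Sfp1 is a zinc finger transcription factor known in S. cerevisiae as a nutrient-responsive activator of ribosomal protein and ribosome biogenesis genes.

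Polyadenylated RNA was sequenced from strains with and without Sfp1. In log phase the groups were S. cerevisiae wild type, delta sfp1 and HA tagged Sfp1, S. paradoxus wild type and delta sfp1, C. glabrata wild type, delta CAGL0D00682g and delta CAGL0M09955g, N. castellii wild type, delta Scas551.1 and delta Scas719.24, K. lactis wild type and delta sfp1, and S. pombe wild type and delta sfp1. CAGL0D00682g and CAGL0M09955g, like Scas551.1 and Scas719.24, are each a pair of SFP1 paralogs deleted singly. S. paradoxus wild type and delta sfp1 were also sampled in lag phase, 30 and 60 min after glucose was restored. Every group had 3 replicate libraries, A, B and C, which made 57 libraries in 19 groups. All cultures grew in the medium labelled BMW, and the labels give no other allele. Whether replicates A, B and C came from independent cultures is not stated. P-values therefore measure the spread between these libraries, which may be technical.

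Totals were 1360916 to 3447874 counts in 39 libraries and 712972 to 2252092 in the 6 of S. pombe. The S. paradoxus lag libraries held 418292 to 640282, except replicate A of delta sfp1 at 30 min with 34081. The targeted gene had 0 counts in delta sfp1 of S. cerevisiae, of K. lactis and of S. paradoxus in lag phase, 2 in S. paradoxus in log phase against 675 in its wild type, and 0 in each C. glabrata deletion. The labels and the count table of N. castellii use different identifiers; of the 2 SFP1 genes there, NCAS0A02570 had 5 counts in delta Scas551.1 against 632 in wild type, and NCAS0J01590 had 0 in delta Scas719.24 against 221. In S. pombe the SFP1 orthologue SPAC16.05c kept 226 counts in the libraries labelled deletion (40.5 ± 8.73 CPM, SD, n = 3) against 403 in wild type (75.6 ± 13.5), so these are called the libraries labelled deletion throughout. The pheromone receptor genes STE2 and STE3, which mark mating type, changed places between wild type and delta sfp1 of S. paradoxus in log phase. STE2 stood at 621 ± 19.8 CPM in that wild type and 13.8 ± 2.38 in delta sfp1, and STE3 at 5.81 ± 2.10 and 473 ± 41.0. The same held between wild type and both deletions of N. castellii, where STE3 was at 64.3 ± 2.66 CPM in wild type and at 1.41 and 0.561 in delta Scas551.1 and delta Scas719.24. STE2 and STE3 of K. lactis stood at 35.8 ± 4.18 and 17.8 ± 1.91 CPM in wild type and at 27.5 ± 4.29 and 47.3 ± 3.997 in delta sfp1. In S. cerevisiae STE2 stood at 680 ± 20.6 CPM in wild type and 355 ± 14.0 in delta sfp1, and STE3 at 0.864 ± 0.796 and 11.3 ± 0.861. The part of these levels in the results was not tested; all 4 S. paradoxus lag groups had STE3 above STE2.

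The promoters of the S. cerevisiae genes show which sequence features the set shares. A window of 300 bases, from 350 to 51 bases before the start codon, was searched on both strands for the PAC core GATGAG, the longer PAC form GCGATGAG, which contains the core, and the RRPE motif AAAAATTTT, with overlapping matches counted as 1. GATGAG was found in 50 of the 56 windows (89.3%) and in 1190 of the 6001 windows of all genes (19.8%). GCGATGAG was in 29 (51.8%) against 4.12% of all windows, and AAAAATTTT was in 35 (62.5%) against 7.83%. Both GATGAG and AAAAATTTT were in 33 windows (58.9%, against 3.67%), and neither was in 4 (7.14%, against 76.0%), those of UTP4, UTP22, UTP30 and EMG1. A Rap1 site, ACCCATACA, was found in 1 window, that of NSR1, and in 0.7% of all windows. The stretches below, of 120 bases each, are RefSeq sequence of the S. cerevisiae build R64, read 5′ to 3′ on the strand of the gene, with matches to the searched PAC and RRPE letters in capitals in either orientation. The first 6 belong to genes that fell in delta sfp1: NSR1 (YGR159C, chrVII:807797-807916, minus strand), SNU13 (YEL026W, chrV:101670-101789, plus), NOP1 (YDL014W, chrIV:427104-427223, plus), UTP10 (YJL109C, chrX:217404-217523, minus), PWP2 (YCR057C, chrIII:223367-223486, minus) and KRR1 (YCL059C, chrIII:23442-23561, minus).
NSR1: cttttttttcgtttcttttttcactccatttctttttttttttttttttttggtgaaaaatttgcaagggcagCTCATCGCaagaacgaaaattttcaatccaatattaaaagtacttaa
SNU13: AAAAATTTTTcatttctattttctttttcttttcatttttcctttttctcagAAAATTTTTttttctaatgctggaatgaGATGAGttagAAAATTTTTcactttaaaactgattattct
NOP1: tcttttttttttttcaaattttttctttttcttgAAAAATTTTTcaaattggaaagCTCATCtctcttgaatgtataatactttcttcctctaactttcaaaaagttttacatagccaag
UTP10: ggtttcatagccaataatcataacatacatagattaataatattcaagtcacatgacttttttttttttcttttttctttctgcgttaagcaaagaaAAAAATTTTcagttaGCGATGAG
PWP2: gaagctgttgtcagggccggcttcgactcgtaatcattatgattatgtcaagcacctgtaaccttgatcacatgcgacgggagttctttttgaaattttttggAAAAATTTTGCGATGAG
KRR1: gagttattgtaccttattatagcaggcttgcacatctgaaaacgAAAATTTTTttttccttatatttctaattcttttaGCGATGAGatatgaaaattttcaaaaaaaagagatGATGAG
UTP20 (YBL004W, chrII:227376-227495, plus) and ENP1 (YBR247C, chrII:714570-714689, minus) are shown because they were the 2 members that rose, and their windows hold both motifs as well.
UTP20: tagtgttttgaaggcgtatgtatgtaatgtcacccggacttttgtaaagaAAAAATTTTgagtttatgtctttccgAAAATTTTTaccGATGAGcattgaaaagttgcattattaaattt
ENP1: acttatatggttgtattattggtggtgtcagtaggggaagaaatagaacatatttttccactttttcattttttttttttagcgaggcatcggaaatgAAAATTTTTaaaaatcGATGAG
UTP4 (YDR324C, chrIV:1116904-1117023, minus), which fell strongly, and EMG1 (YLR186W, chrXII:523372-523491, plus), whose change did not pass the test, are windows without either motif.
UTP4: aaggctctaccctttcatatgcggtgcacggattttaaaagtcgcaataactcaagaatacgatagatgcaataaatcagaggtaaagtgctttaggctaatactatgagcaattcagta
EMG1: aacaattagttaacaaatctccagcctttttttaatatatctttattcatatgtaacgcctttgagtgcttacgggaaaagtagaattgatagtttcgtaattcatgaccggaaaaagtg

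In S. cerevisiae in log phase, most of the set fell in delta sfp1. Of 56 genes tested, 47 were lower and 2 were higher, with a median log2 fold change of -0.68 and a range of -1.70 to 0.57. A gene was called lower or higher at an adjusted p below 0.05 over all 5826 genes tested (edgeR's quasi-likelihood test with Benjamini-Hochberg adjustment). Of all those genes, 26.0% were lower and 26.0% were higher, with a median of 0.03. The set's share of all counts was 0.860% ± 0.015 in wild type and 0.584% ± 0.028 in delta sfp1 (SD, n = 3). With library size as the only scaling, 41 genes of the set were lower and 2 higher, while of all genes 15.3% were lower and 43.1% higher.

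NSR1, the nucleolin-like protein of the yeast nucleolus, had the largest fall of the set. Its levels were 533, 502 and 499 CPM (counts scaled to a common library size after TMM) in wild type and 157, 171 and 144 in delta sfp1. All 3 deletion libraries lay far below all 3 wild-type libraries (log2 fold change -1.70 ± 0.07, SE; edgeR adjusted p = 4.7e-12).

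The protein genes of the U3 box C/D particle fell together, 5 of 5, with a median of -1.24. SNU13, a small RNA-binding protein shared with the spliceosome, read 262, 252 and 251 CPM in wild type and 93.2, 90.6 and 84.7 in delta sfp1 (-1.51 ± 0.06, edgeR adjusted p = 1.3e-11). NOP1, the fibrillarin methyltransferase, read 479, 560 and 520 CPM against 221, 209 and 216 (-1.28 ± 0.08, edgeR adjusted p = 6.6e-10). For both genes all 3 deletion libraries lay well below all 3 wild-type libraries. The paired core proteins NOP56 and NOP58 moved alike, NOP56 from 769, 760 and 802 to 321, 353 and 314 CPM (-1.24 ± 0.06) and NOP58 from 591, 578 and 610 to 253, 274 and 269 (-1.16 ± 0.05).

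UtpA, the subcomplex that binds the precursor first, fell in 7 of 7 genes with a median of -0.80. UTP4, one of its WD40 proteins, read 140, 146 and 158 CPM in wild type and 62.7, 64.2 and 56.4 in delta sfp1 (-1.28 ± 0.09, edgeR adjusted p = 2.3e-09). UTP10, its largest scaffold, read 338, 303 and 349 CPM against 166, 166 and 173 (-0.97 ± 0.07, edgeR adjusted p = 9.6e-09). UtpB fell in 6 of 6 genes with a median of -0.71. Its scaffold PWP2 went from 166, 183 and 181 CPM to 104, 117 and 99.3, again without overlap (-0.74 ± 0.08, edgeR adjusted p = 6.2e-07).

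The remaining groups of early factors had medians of -0.49 to -0.66. In the Mpp10 complex 2 of 3 genes fell, MPP10 itself by 0.69 ± 0.08, and IMP3 did not pass the test (-0.24, edgeR adjusted p = 0.248). UTP22 of the UtpC complex fell by 0.66 ± 0.07. Of 7 enzymes, 5 fell, among them the GTPase BMS1 (-0.83 ± 0.07), the helicase ECM16 (-0.70 ± 0.07) and RCL1, which works with BMS1 (-0.47 ± 0.12). EMG1, the methyltransferase of a modified uridine, read 79.0, 81.2 and 85.1 CPM in wild type and 74.0, 82.1 and 81.6 in delta sfp1, overlapping groups (-0.05 ± 0.09, edgeR adjusted p = 0.659). Among 17 other processome factors 15 fell and 1 rose; RRP5, a long RNA-binding scaffold needed for both subunits, fell by 0.86 ± 0.06 and KRR1, a KH-domain protein, by 0.87 ± 0.11.

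Late maturation factors were divided. Of 8, 5 fell and 1 rose. TSR1, a GTPase-like protein of the cytoplasmic particle, fell by 0.92 ± 0.08, NOB1, the nuclease that makes the mature RNA end, by 0.69 ± 0.11, LTV1 by 0.55 ± 0.12 and the kinase RIO1 by 0.53 ± 0.11. DIM1, an RNA dimethyltransferase, and the kinase RIO2 did not pass the test (-0.15 and -0.24, edgeR adjusted p = 0.163 and 0.148). ENP1, which joins early and leaves with the late particle, rose: it read 81.3, 90.03 and 83.1 CPM in wild type and 121, 110 and 119 in delta sfp1 (0.45 ± 0.08, edgeR adjusted p = 2.1e-04).

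The other gene that rose was UTP20, a very large helical-repeat protein of the processome. Its levels were 221, 234 and 240 CPM in wild type, 329, 338 and 367 in delta sfp1 and 215, 260 and 228 with HA tagged Sfp1. The 3 deletion libraries were above all the others (0.57 ± 0.07, edgeR adjusted p = 4.7e-06).

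**Figure D1:**
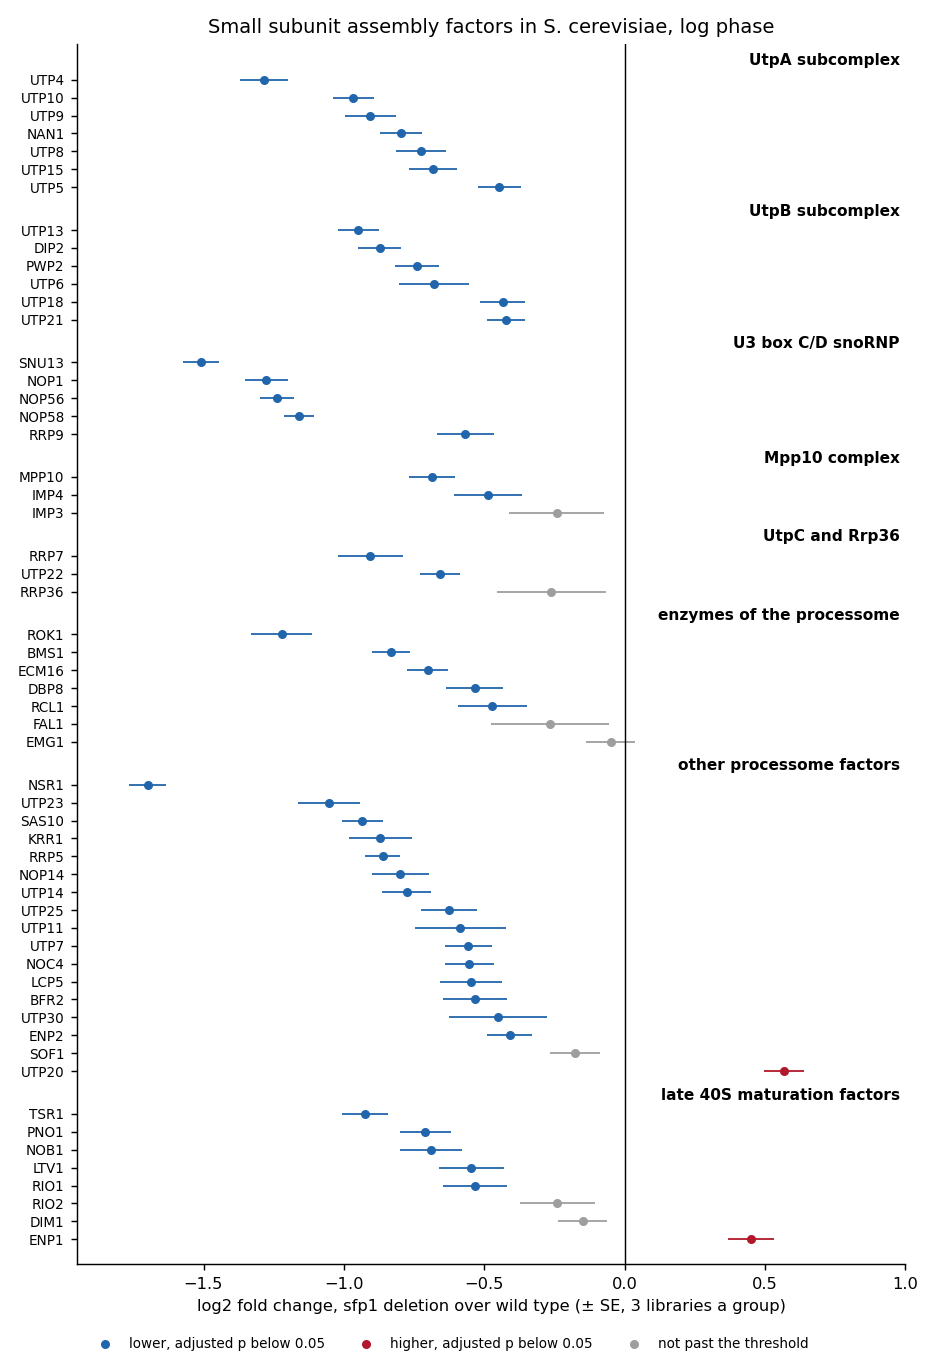
Log2 fold change of each of the 56 S. cerevisiae genes in delta sfp1 against wild type, log phase, with SE bars, grouped by complex or step from top to bottom; blue points are lower, red points higher and grey points not past the threshold. NSR1 at -1.70 and SNU13 at -1.51 lie farthest to the left, and UTP20 and ENP1 lie to the right of 0 at 0.57 and 0.45.

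The 5 genes of highest level in wild type all fell. Per kb of coding length, the levels were 670 CPM for SNU13, 528 for NOP1, 513 for NOP56, 411 for NSR1 and 386 for NOP58, while the next was PNO1 at 125 and the median of the set was 63.1. These 5 had log2 fold changes of -1.16 to -1.70 with a median of -1.28, and the other 51 had a median of -0.63 over a range of -1.28 to 0.57. The cut between 5 and 51 was chosen after the levels were seen, and no test was made of it.

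Grouped by promoter motif, the 33 genes with both GATGAG and AAAAATTTT had a median of -0.78, 30 of them lower and 2 higher. The 17 with GATGAG alone had a median of -0.55 with 12 lower, the 2 with AAAAATTTT alone were both lower, and of the 4 with neither 3 were lower, with a median of -0.55. UTP20 and ENP1, the genes that rose, belong to the group with both motifs, and UTP4, among the largest falls, to the group with neither.

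**Figure D2:**
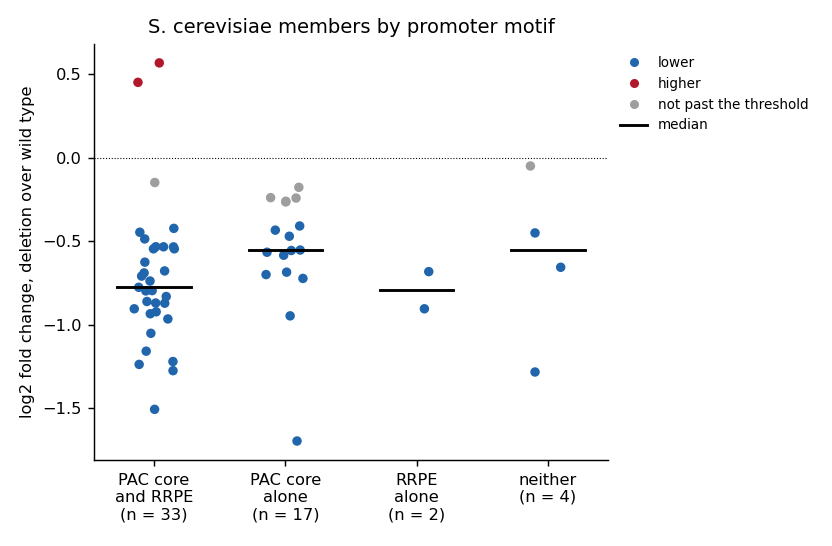
Log2 fold change in S. cerevisiae delta sfp1 against wild type, 1 point per gene, by which motifs the promoter window holds; bars are group medians, blue is lower, red higher and grey not past the threshold. The medians are -0.78 for both motifs, -0.55 for the PAC core alone and -0.55 for neither, and the ranges of these groups overlap.

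Related lists chosen for comparison moved the same way in S. cerevisiae. Of 55 large subunit assembly factors, 45 were lower and 3 higher (median -0.64), and of 56 small subunit ribosomal protein genes, 52 were lower and 1 higher (median -0.82). Among 28 further small subunit factors outside the set, 16 were lower and 1 higher (median -0.34).

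With HA tagged Sfp1, no gene of the set passed the test against wild type. The median was -0.07, and 0.0% of all 5826 genes were lower and 0.0% higher. At an unadjusted p below 0.05, 4 of the 56 were lower and 318 of all genes passed; DESeq2 also called 0 of the set. NSR1 read 466, 490 and 478 CPM with the tag, just below the wild-type libraries (-0.09 ± 0.06, edgeR adjusted p = 0.897).

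In S. paradoxus in log phase, 52 of the 54 genes tested were lower in delta sfp1 and 0 were higher, with a median of -0.96 (-1.85 to 0.08). Of all 4908 genes, 32.6% were lower and 24.8% higher; library size alone gave 40 lower and 1 higher in the set beside 13.8% and 58.8% of all genes. NOP56, RIO1 and RRP7 were not analysed here in this species. SNU13 had the largest fall, from 321, 310 and 343 CPM to 73.9, 102 and 95.2 (-1.85 ± 0.11, edgeR adjusted p = 1.4e-15). NSR1 went from 1434, 1112 and 1292 CPM to 383, 426 and 375 (-1.70 ± 0.11), and NOP1 from 942, 725 and 858 to 237, 303 and 284 (-1.62 ± 0.10). In all of these the groups stood clear of each other. The U3 particle genes had the lowest median here too, -1.43 over 4 genes, then UtpA with -1.18 and UtpB with -1.07. The late factors, with 7 of 7 lower, had a median of -0.84. UTP20, which rose in S. cerevisiae, read 340, 299 and 405 CPM in wild type and 404, 351 and 341 in delta sfp1, overlapping groups (0.08 ± 0.11, edgeR adjusted p = 0.555), and ENP1 was lower by 0.31 ± 0.10 with overlapping groups, a value of 0.18 with library size alone.

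The lag phase, in which cells re-enter growth, showed the set at its highest levels. Its share of all counts in wild type was 3.18% ± 0.086 at 30 min, 1.98% ± 0.105 at 60 min and 1.14% ± 0.091 in log phase (SD, n = 3). In delta sfp1 it was 1.44% ± 0.087, 1.28% ± 0.058 and 0.784% ± 0.046. The wild-type libraries of log phase also differed from those of lag phase in depth and in STE2, at 621 CPM against 16.6 at 30 min and 14.0 at 60 min. In wild type, phase cannot be told apart from these differences. Depth differed between the phases in delta sfp1 as well. At 30 min all 54 genes tested were lower in delta sfp1, with a median of -1.43 (-2.74 to -0.40), where 24.6% of all genes were lower and 28.3% higher. Without the shallow replicate A of delta sfp1 at 30 min, 54 were lower as well. At 60 min 49 were lower and 0 higher, with a median of -0.88 (-1.97 to 0.22), beside 25.0% and 25.7% of all genes; library size alone gave 41 lower and 2 higher, beside 16.5% and 39.0%.

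UTP10 shows the values behind these counts. In wild type it read 1326, 1239 and 1382 CPM at 30 min and 667, 690 and 730 at 60 min. In delta sfp1 it read 189, 300 and 338 CPM at 30 min and 211, 253 and 233 at 60 min. The wild-type level dropped between the times while every deletion library stayed below every wild-type library; the fold change was -2.08 ± 0.12 at 30 min and -1.57 ± 0.11 at 60 min (edgeR adjusted p = 3.5e-16 and 4.1e-14).

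The largest fold change at 30 min was that of UTP23, a processome factor with a degenerate nuclease fold. It read 272, 227 and 199 CPM in wild type and 0, 33.3 and 38.2 in delta sfp1, the 0 being in the shallow library (-2.74 ± 0.22, edgeR adjusted p = 1.7e-12). CIC1/UTP30 (Spar_8.131) and UTP11 followed with -2.22 ± 0.14 and -2.19 ± 0.20. Spar_8.131 may be the orthologue of the large subunit factor CIC1 rather than of UTP30, which lies on chromosome XI in S. cerevisiae. At 60 min the lowest were UTP6 of UtpB (-1.97 ± 0.16), CIC1/UTP30 (-1.74 ± 0.12) and UTP23 (-1.68 ± 0.18).

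NSR1 had the smallest fall at 30 min. It read 5847, 5580 and 5419 CPM in wild type and 3073, 4944 and 4311 in delta sfp1 (-0.40 ± 0.11, edgeR adjusted p = 0.00224). At 60 min it read 2111, 2101 and 2077 CPM against 1250, 1242 and 1227 (-0.76 ± 0.11), and in log phase its fold change was -1.70. Log and lag phase were not tested against each other.

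UTP20 was lower at 30 min, from 1242, 1166 and 1294 CPM to 377, 716 and 772 (-0.80 ± 0.12, edgeR adjusted p = 1.1e-06). At 60 min its groups overlapped, at 571, 581 and 578 CPM in wild type and 563, 608 and 538 in delta sfp1 (-0.02 ± 0.12, edgeR adjusted p = 0.914). With library size alone the 60 min value was 0.27.

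**Figure D3:**
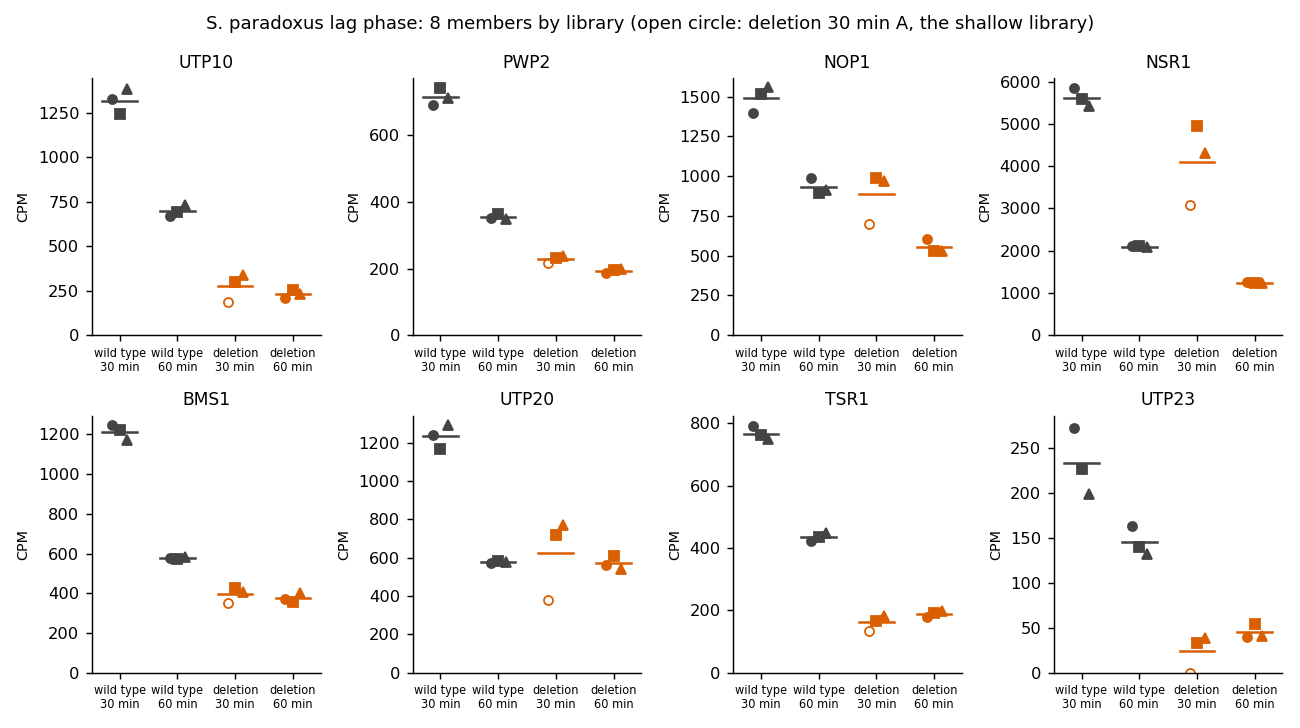
Levels of 8 genes of the set in each S. paradoxus lag library, in CPM on linear axes that start at 0, for wild type (grey) and delta sfp1 (orange) at 30 and 60 min; circles, squares and triangles are replicates A, B and C, lines are means and the open circle is the shallow library. Wild-type levels are lower at 60 than at 30 min for all 8, whereas deletion levels of UTP10, PWP2, BMS1, TSR1 and UTP23 lie close together at both times.

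The fall with time was tested in each strain. In wild type, 52 of 54 genes were lower at 60 than at 30 min and 0 higher, with a median of -0.79, beside 19.8% of all genes lower and 16.7% higher; library size alone gave 51 lower, beside 14.5% and 27.0%. In delta sfp1, 11 were lower and 0 higher, with a median of -0.23, beside 14.7% and 7.97% of all genes; the direction depended on the scaling, since library size alone gave 4 lower and 7 higher with a median of 0.18, beside 6.11% and 34.9% of all genes. The 11 included NSR1 (-1.78 ± 0.11), SNU13 (-1.07 ± 0.14) and NOP58 (-0.78 ± 0.10). Without replicate B of delta sfp1 at 30 min 7 were lower.

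The test of the difference itself, the deletion effect at 60 min minus that at 30 min, called 28 of 54 genes higher and 0 lower, with a median of 0.52 (-0.46 to 1.36). Of all genes, 7.5% were higher and 7.82% lower; with library size alone 40 of the set were higher, beside 14.8% and 5.73%. Higher here means that the deletion effect was less negative at 60 min. BMS1 had the smallest adjusted p. It read 1249, 1221 and 1170 CPM in wild type at 30 min and 575, 572 and 580 at 60 min, and in delta sfp1 350, 426 and 405, then 372, 353 and 401 (difference 0.95 ± 0.14, edgeR adjusted p = 1.1e-05). The difference was 0.96 ± 0.17 for TSR1 and 0.76 ± 0.15 for PWP2, and UTP11 had the largest difference, 1.36 ± 0.28. Late factors were called in 6 of 7, other processome factors in 12 of 18 and U3 particle genes in 1 of 4. Without the shallow library 26 were higher and 2 lower.

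Ribosomal protein genes of the small subunit took the other direction over time. In wild type 22 of 35 were higher at 60 than at 30 min and 0 lower (median 0.28), and in the test of the difference 30 of 35 were lower (median -0.72). Large subunit assembly factors went with the set, with 26 higher and 2 lower of 58 in that test (median 0.48).

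In C. glabrata the 2 paralogs gave different results. In delta CAGL0M09955g, 52 of 57 genes tested were lower and 0 higher, with a median of -0.56 (-0.99 to 0.16), while 18.6% of all 4760 genes were lower and 15.0% higher; with library size alone 44 of the set were lower beside 9.83% and 26.8% of all genes. In delta CAGL0D00682g, 0 passed the test, with a median of -0.05, beside 0.189% of all genes lower and 0.378% higher. There, 5 passed an unadjusted p below 0.05, 4 of them lower, and DESeq2 called 0. The direct test of delta CAGL0M09955g against delta CAGL0D00682g, which shares no wild-type library, found 53 lower and 0 higher, with a median of -0.48, beside 17.2% and 12.3% of all genes; library size alone gave 36 lower, beside 9.54% and 24.2%. The orthogroup of EMG1 has 3 rows in this species, 2 of which were too low to test.

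RCL1 had the largest fall in delta CAGL0M09955g. It read 49.7, 45.2 and 59.3 CPM in wild type, 51.6, 45.7 and 45.6 in delta CAGL0D00682g and 25.3, 26.2 and 26.6 in delta CAGL0M09955g (-0.99 ± 0.13 against wild type, edgeR adjusted p = 5.3e-09). PWP2 read 181, 161 and 183, then 167, 167 and 160, then 84.0, 96.0 and 105 CPM in the same order (-0.88 ± 0.08). UTP10 read 273, 274 and 307, then 265, 282 and 240, then 170, 151 and 151 CPM (-0.85 ± 0.07). In each case the delta CAGL0M09955g libraries were below those of the other 2 groups, which overlapped.

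The medians of UtpB, UtpA and the U3 particle lay close together in C. glabrata. In delta CAGL0M09955g they were -0.66, -0.58 and -0.57, each with every gene lower. Medians of the other roles are not given here. NSR1, at 566, 500 and 592 CPM in wild type and 441, 432 and 472 in the deletion, had a fold change of -0.30 ± 0.06, among the smaller of the falls. UTP20 and ENP1 were both lower, by 0.42 ± 0.07 and 0.68 ± 0.09.

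In N. castellii the set was lower in both single deletions. In delta Scas551.1, 45 of 57 genes were lower and 0 higher, with a median of -0.55 (-1.23 to 0.01), beside 20.4% of all 5338 genes lower and 21.4% higher; library size alone gave 30 lower, beside 10.3% and 31.3%. In delta Scas719.24, 26 were lower and 0 higher, with a median of -0.28, beside 11.3% and 14.8%; library size alone gave 48 lower, beside 22.0% and 9.85%, so which deletion had more genes lower rests on the scaling. Leaving out replicate B of delta Scas719.24 gave 15 lower. The share of counts was 0.814% ± 0.051 in wild type, 0.549% ± 0.010 in delta Scas551.1 and 0.601% ± 0.036 in delta Scas719.24. The direct test of delta Scas551.1 against delta Scas719.24 gave 25 lower and 0 higher (median -0.28), beside 12.9% and 11.3% of all genes, but with library size alone it gave 7 lower and 9 higher with a median of 0.05, beside 3.39% and 40.7%, so its direction rests on the scaling.

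TSR1, NOP1 and NSR1 had the largest falls in delta Scas551.1. TSR1 read 142, 159 and 143 CPM in wild type, 65.5, 59.1 and 64.7 in delta Scas551.1 and 116, 106 and 122 in delta Scas719.24 (-1.23 ± 0.10 and -0.37 ± 0.08 against wild type). NOP1 read 542, 546 and 502, then 249, 232 and 198, then 484, 409 and 416 CPM (-1.22 ± 0.09 and -0.28 ± 0.09). For both genes the 3 groups did not overlap, with delta Scas719.24 between the others. NSR1 read 802, 734 and 787, then 344, 352 and 340, then 744, 626 and 700 CPM, and its change in delta Scas719.24 did not pass the test (-1.16 ± 0.08; -0.17 ± 0.08, edgeR adjusted p = 0.124).

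EMG1 had the largest fall in delta Scas719.24, from 84.0, 79.8 and 83.2 CPM to 61.5, 54.2 and 57.1 (-0.52 ± 0.10, edgeR adjusted p = 3.0e-04). In delta Scas551.1 it read 57.7, 62.1 and 73.1 CPM, a range that overlaps that of delta Scas719.24. PWP2 did not pass the test in either deletion (-0.22 ± 0.09 and -0.13 ± 0.08, edgeR adjusted p = 0.0557 and 0.312).

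In K. lactis, 43 of 47 genes were lower in delta sfp1 and 1 was higher, with a median of -0.75 (-2.10 to 0.37), beside 33.3% of all 4941 genes lower and 33.1% higher; with library size alone 34 were lower and 2 higher, beside 21.5% and 43.3%. IMP3, IMP4, LCP5, LTV1, RIO1, SNU13, TSR1, UTP20, UTP25 and UTP8 were not analysed here by sequencing in this species. NOP58 had the largest fall, from 742, 728 and 742 CPM to 178, 154 and 185 (-2.10 ± 0.08, edgeR adjusted p = 9.0e-14). DBP8, a DEAD-box helicase, went from 140, 156 and 185 CPM to 36.5, 41.7 and 46.0 (-1.97 ± 0.11), and UTP22 from 303, 302 and 322 to 77.8, 73.6 and 89.9 (-1.94 ± 0.08). For each of the 3 genes every deletion library lay far below every wild-type library. The U3 particle genes fell in 4 of 4 (median -1.51) and UtpC with RRP36 in 3 of 3 (median -1.53). BFR2 was the gene that rose, from 87.4, 85.6 and 89.7 CPM to 111, 103 and 124 (0.37 ± 0.07, edgeR adjusted p = 3.2e-04). SOF1, RIO2 and FAL1 did not pass the test, and ENP1 fell by 0.83 ± 0.07.

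In S. pombe, where the libraries labelled deletion kept transcripts of the targeted gene, 13 of 55 genes were lower and 1 was higher, with a median of -0.16 (-1.21 to 0.54). Of all 5296 genes, 6.82% were lower and 3.19% higher. Library size alone gave 9 lower and 5 higher, beside 4.48% and 6.48% of all genes, DESeq2 9 lower and 0 higher, and leaving out replicate A of the libraries labelled deletion gave 8 lower. UTP8 was not analysed here in this species. Of the U3 particle genes 4 of 5 were lower (median -0.72), and 0 of 5 UtpA genes and 0 of 6 UtpB genes passed the test.

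NOP56 read 788, 963 and 887 CPM in S. pombe wild type and 450, 471 and 501 in the libraries labelled deletion (-0.90 ± 0.09, edgeR adjusted p = 3.7e-04). MPP10 read 156, 180 and 179 CPM against 90.8, 93.0 and 76.0 (-0.95 ± 0.10), and RIO1 40.8, 45.3 and 54.3 against 22.8, 17.6 and 20.7 (-1.21 ± 0.18). The groups of these genes did not overlap. DBP8 was the gene that rose, from 74.6, 81.5 and 77.3 CPM to 117, 95.5 and 137 (0.54 ± 0.13, edgeR adjusted p = 0.031).

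**Figure D4:**
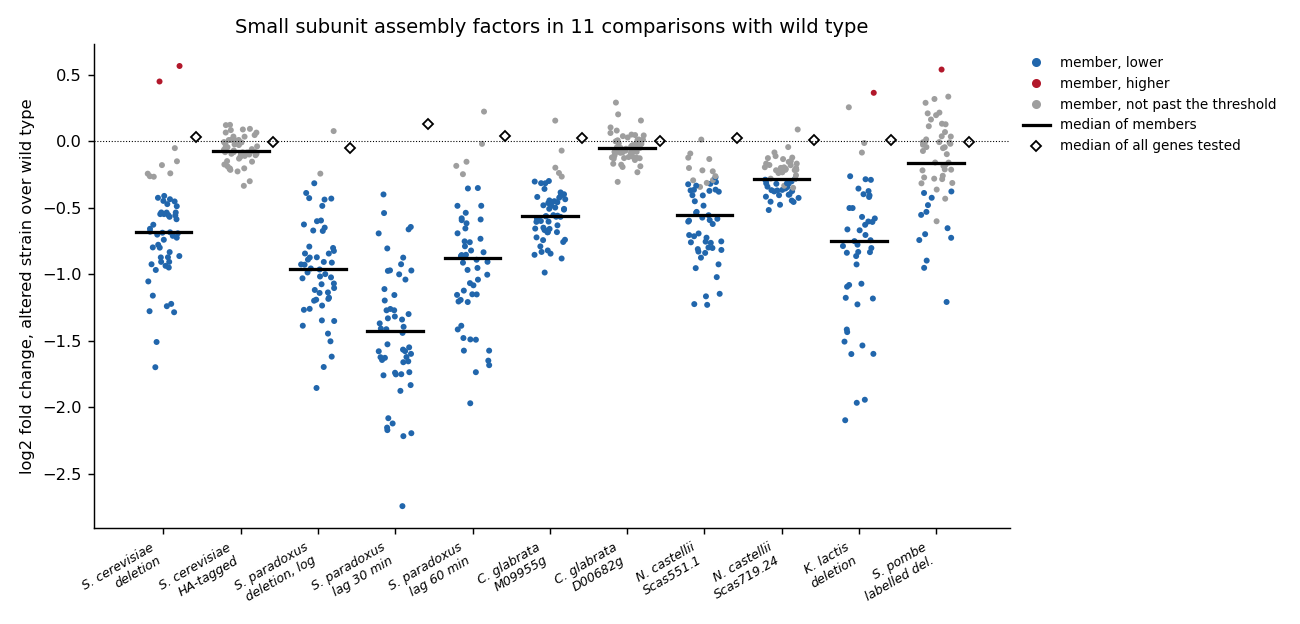
Log2 fold changes of the set in 11 comparisons of a mutant or tagged strain with its wild type; dots are genes (blue lower, red higher, grey not past the threshold), bars their medians and diamonds the medians of all genes tested. The medians of the set run from -1.43 in S. paradoxus at 30 min to -0.05 in C. glabrata delta CAGL0D00682g.

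**Figure D5:**
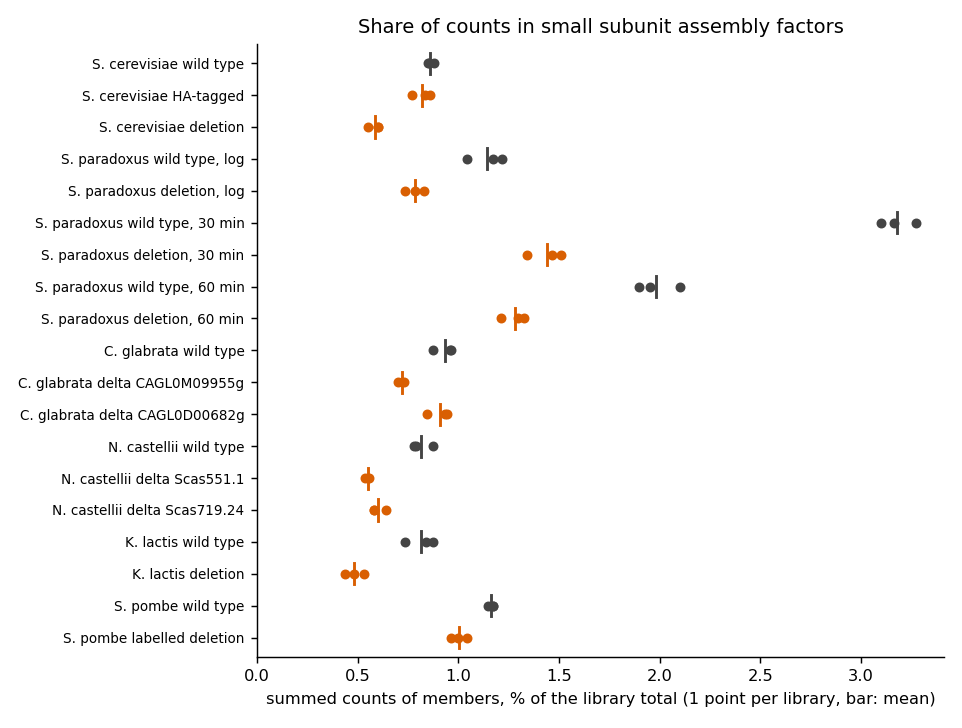
Share of all counts that fell on the set, in percent, 1 point per library and 19 groups, wild type in grey and altered strains in orange, with bars at the means. S. paradoxus wild type at 30 min stands highest with a mean of 3.18%, and K. lactis delta sfp1 lowest with 0.483%. The sums cover 47 genes in K. lactis, 54 in S. paradoxus and 56 in S. cerevisiae, so shares of different species do not cover the same genes.

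The deletion effects of the other species were then tested against that of S. cerevisiae, on orthogroups with 1 gene in both species. All 7 tests use the same S. cerevisiae libraries and are not independent of each other. Each C. glabrata and N. castellii deletion kept counts of the other SFP1 paralog, while SFP1 had 0 counts in S. cerevisiae delta sfp1. For these deletions a difference between species cannot be told apart from the loss of a single paralog. The S. pombe libraries labelled deletion kept 226 counts of the SFP1 orthologue, against 403 in wild type. For them a difference between species cannot be told apart from an incomplete loss of these transcripts. A value below 0 means a larger fall or a smaller rise than in S. cerevisiae, or a fall where the gene rose in S. cerevisiae. Against S. paradoxus, 18 of 50 genes were lower and 0 higher (median -0.25), beside 21.3% and 12% of 3272 orthogroups; the direction rested on the scaling, with 10 lower and 1 higher by RLE factors, beside 14.3% and 15.4%, and 4 lower and 2 higher by library size alone (median 0.03), beside 7.15% and 24.6%. For delta CAGL0M09955g, 6 of 52 were lower and 17 higher (median 0.16), beside 16.5% and 20.3%. For delta CAGL0D00682g, 2 of 52 were lower and 42 higher (median 0.66), beside 14.6% and 19.8%; library size alone gave 2 and 30, beside 24.4% and 11.4%. For delta Scas551.1, 7 of 53 were lower and 12 higher (median 0.10), beside 19.2% and 23.1%, and 9 and 9 with library size alone. For delta Scas719.24, 3 of 53 were lower and 33 higher (median 0.42), beside 17.4% and 23.7%; library size alone gave 8 and 9, beside 41.8% and 10.7%. In K. lactis 16 of 43 were lower and 8 higher (median 0.10), beside 31.4% and 23.1%. In the S. pombe libraries labelled deletion 2 of 52 were lower and 36 higher (median 0.51), beside 16.8% and 21.0%; library size alone gave 5 and 32, beside 20.9% and 15.4%. In S. paradoxus, delta Scas551.1 and K. lactis the share of the set that differed in either direction (36.0%, 35.8% and 55.8%) was near or below that of all orthogroups (33.3%, 42.2% and 54.5%).

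UTP20 and ENP1, the 2 genes that rose in S. cerevisiae, differed from S. cerevisiae in most of these tests. They are singled out by their rise in the same S. cerevisiae libraries that enter each test, so the direction of these differences is partly set by that choice. UTP20 was lower by 0.98 ± 0.09 in delta CAGL0M09955g (edgeR adjusted p = 6.0e-18), by 1.26 ± 0.11 in delta Scas551.1 (edgeR adjusted p = 2.8e-13), by 0.48 ± 0.12 in S. paradoxus (edgeR adjusted p = 0.00163) and by 0.99 ± 0.11 in S. pombe (edgeR adjusted p = 5.3e-07). ENP1 differed by -1.13 ± 0.12 in delta CAGL0M09955g, -1.26 ± 0.14 in delta Scas551.1, -0.76 ± 0.13 in S. paradoxus and -1.28 ± 0.11 in K. lactis. In S. pombe ENP1 did not pass the test (-0.23 ± 0.13). Both also passed in delta CAGL0D00682g (-0.69 ± 0.09 and -0.49 ± 0.12), where neither passed the test against its own wild type.

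NSR1, the largest fall in S. cerevisiae, fell less in several of the others. Like UTP20 and ENP1, NSR1 is singled out by its value in the S. cerevisiae libraries that enter each test. Its difference was 1.39 ± 0.08 in delta CAGL0M09955g (edgeR adjusted p = 1.5e-31), 0.53 ± 0.09 in delta Scas551.1 (edgeR adjusted p = 4.8e-06), 1.53 ± 0.09 in delta Scas719.24 (edgeR adjusted p = 8.1e-21) and 1.02 ± 0.13 in S. pombe. In S. paradoxus it was 0.00 ± 0.09 and in K. lactis 0.10 ± 0.09 (edgeR adjusted p = 0.994 and 0.366). SNU13, singled out in the same way by its large fall in S. cerevisiae, fell less in delta CAGL0M09955g (0.84 ± 0.09) and in delta Scas551.1 (1.18 ± 0.10).

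The members of smallest adjusted p in the remaining tests were these. In K. lactis they were UTP22 (-1.29 ± 0.10, edgeR adjusted p = 1.8e-17), ENP1 and NOP58 (-0.94 ± 0.08). UTP22 and NOP58 fell more than in S. cerevisiae, while ENP1 fell in K. lactis and rose in S. cerevisiae. BFR2 had the largest difference in the other direction (0.90 ± 0.12). In S. paradoxus they were ENP1, EMG1 (-0.77 ± 0.14, edgeR adjusted p = 3.1e-05) and SOF1 (-0.84 ± 0.16). In S. pombe the helicase ROK1 (1.34 ± 0.16), the UtpB protein DIP2 (1.16 ± 0.12) and KRR1 (1.08 ± 0.14) had the largest positive differences, and RIO1 (-0.68 ± 0.23) was, with UTP20, 1 of the 2 that were lower.

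Microarray log ratios in the authors' deposited table cover lag phase in more strains, in columns marked 15, 30, 60 and 90. The base of the logarithm is not given in the sources used here, and the values are given with the sign turned, which places the deleted gene below 0 in each column. They are authors' values, with no error of their own. In the S. cerevisiae columns marked BY of the authors' deposited table, the median of the 56 genes was -0.15 at 15, -0.89 at 30, -0.43 at 60 and -0.35 at 90. In those marked RM it was -1.22 at 30, -0.95 at 60 and -0.60 at 90 in the authors' deposited table, with 56 of 56 genes below 0 at 30. In BY, NSR1 stood at 1.36, 0.43, 0.41 and -0.57 at 15, 30, 60 and 90 in the authors' deposited table, and in RM at -0.28, -0.32 and -0.89 from 30 on. UTP20, which rose in log phase by sequencing, stood at 0.21, -0.44, -0.18 and -0.22 in BY and at -1.18, -1.08 and -0.60 in RM in the authors' deposited table. ENP1, the other gene that rose, stood at -0.04, -1.17, -0.38 and -0.25 in BY and at -1.66, -1.41 and -0.98 in RM in the authors' deposited table.

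For C. glabrata the authors' deposited table gives medians of -0.72, -0.62 and -0.48 at 30, 60 and 90 for delta CAGL0M09955g. For delta CAGL0D00682g they are -0.04, -0.05 and -0.10 in the authors' deposited table. For N. castellii, the medians in the authors' deposited table are -0.82, -0.62 and -0.31 for delta Scas551.1 and -1.60, -0.76 and -0.05 for delta Scas719.24. At 30 the latter is the lower of the pair; arrays and sequencing were not tested against each other. For K. lactis the medians over 57 genes in the authors' deposited table are -0.06, 0.11 and 0.04. Over the 47 of these that were also sequenced, the authors' deposited table gives -0.08, 0.11 and 0.05. For S. pombe the medians in the authors' deposited table are -0.66, -0.58 and -0.40, with 54 of 55 genes below 0 at 30. The SFP1 orthologue stood at -7.62, -8.07 and -7.50 there in the authors' deposited table, whereas the sequenced libraries labelled deletion kept its transcripts. Medians of all genes with a listed S. cerevisiae orthologue lay between -0.07 and 0.05 in these columns of the authors' deposited table.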

How the data were processed

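Polyadenylated RNA of 6 yeasts was sequenced with paired reads, per the labels' protocols. The deposited values are estimated counts per gene (expected counts, not normalized), made by the authors with RSEM 1.2.11 and Bowtie 1, per the submitters' processing notes, which also name edgeR and the build ASM294v2; builds for the other species: not given in the sources used here. Between 59.6% and 96.7% of rows of a species were whole numbers in every library within 1e-06, and all values were rounded before testing. The authors' deposited tables of log ratios have no stated base and were treated as a score. The orthogroup table deposited by the authors is of another kind: it gives identifiers, and each gene was matched to members through its list of S. cerevisiae orthologues.

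One fit per species held all its libraries: edgeR 4.0.16 (R 4.3.3, limma 3.58.1), filterByExpr, TMM factors, quasi-likelihood test, two-sided, Benjamini-Hochberg adjustment over all genes tested, called at 0.05. SE is the absolute log2 fold change over the root of F. CPM used TMM-scaled library sizes. Differences between species were tested on orthogroups with 1 gene in each species, each species keeping its own factors. The code was tested on simulated data. Alternatives were RLE factors, library size alone, no filter, DESeq2 1.42.0, a replicate block, only the groups compared, and each replicate left out. Promoters and figures used Python 3.11.15, pandas 2.3.3, numpy 2.4.6, scipy 1.17.1 and matplotlib 3.10.9. The lone S. cerevisiae wild-type sample at 60 min was not used here; 58 samples were labelled and 57 had a count column.

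Members and lists were chosen with earlier results of these data known. Named genes are a panel of 22 chosen by role, in each comparison the 3 most negative and 3 most positive called genes without overlap, up to 6 called against the majority, the 3 smallest adjusted p in tests between species or times, and SFP1, STE2 and STE3. UTP20 in the lag phase and SNU13 and RIO1 between species follow from these rules for another comparison; genes named as not passing a test, or not analysed, were named after their values were seen. In bulk RNA, fewer cells of a kind and less RNA per cell cannot be told apart. Depth limits precision most in the S. paradoxus lag libraries.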

Additional observations from a re-analysis of the deposited data

Results flagged for a closer look

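Deletion effects were tested against each other in 10 comparisons, and the share of members that differed in either direction is given beside that of all genes or orthogroups tested. The deletion effect of S. paradoxus differed between 60 and 30 min of lag phase for 28 members (51.9%, against 15.3%). The effects of the 2 C. glabrata deletions differed for 53 (93.0%, against 29.5%), and those of the 2 N. castellii deletions for 25 (43.9%, against 24.1%). Against the S. cerevisiae deletion, the effect differed for 44 members in C. glabrata delta CAGL0D00682g (84.6%, against 34.4%), 36 in N. castellii delta Scas719.24 (67.9%, against 41.1%), 38 in the S. pombe libraries labelled deletion (73.1%, against 37.8%) and 23 in delta CAGL0M09955g (44.2%, against 36.9%). In the other 3 the share was near or below that of all orthogroups: 18 members in S. paradoxus (36.0%, against 33.3%), 24 in K. lactis (55.8%, against 54.5%) and 19 in delta Scas551.1 (35.8%, against 42.2%). Library size alone gave 8 lower and 9 higher for delta Scas719.24 against S. cerevisiae, beside 41.8% and 10.7% of all orthogroups. It gave 6 and 12 for delta CAGL0M09955g, beside 18.7% and 16.6%. Between the N. castellii deletions it gave 7 and 9, beside 3.39% and 40.7% of all genes. In these tests the excess of the set rested on the scaling. The 7 tests against S. cerevisiae share its libraries. Each C. glabrata and N. castellii deletion kept the other SFP1 paralog, so there a difference between species cannot be told apart from the loss of a single paralog. The S. pombe libraries labelled deletion kept transcripts of the SFP1 orthologue. For them a difference between species cannot be told apart from an incomplete loss of these transcripts. In delta CAGL0D00682g 0 members passed the test against wild type of the same species. Levels of STE2 and STE3 differ between wild type and deletion in S. paradoxus log phase, N. castellii, K. lactis and S. cerevisiae, and their part in these counts was not tested.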

How the results depend on the processing

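Of 310 counts of called members under an alternative, 299 stayed within 1.5 times the reported count in its direction, 9 moved further and 2 reversed; of 310 medians, 282 moved little, 25 moved and 3 reversed. Of the values of single genes, 6765 kept direction and call, 83 gained the call, 270 lost it and 8 reversed. Library size alone, which moves the median of all genes by up to 0.50, gave all reversals. In S. paradoxus delta sfp1 at 60 against 30 min it gave 11 called (4 lower, 7 higher), a median of 0.18, and 0.0022 for UTP10, 0.049 for RRP5 and 0.29 for BMS1. In S. paradoxus it gave 0.073 for RIO2, 0.11 for ECM16 and 0.18 for ENP1 in log phase and 0.27 for UTP20 at 60 min. For delta Scas551.1 against delta Scas719.24 it gave 16 called (7 lower, 9 higher) and a median of 0.053, for delta Scas719.24 48, and for S. paradoxus against S. cerevisiae 6 and a median of 0.027. For delta Scas719.24 against S. cerevisiae it gave 17, with ECM16 at -0.081. RLE factors gave 11 for S. paradoxus against S. cerevisiae, no filter gave 7 for S. paradoxus delta sfp1 at 60 against 30 min, and DESeq2 gave 9 for S. pombe. The cause was not tested.

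With each replicate left out in turn, called members ranged from 47 to 50 in S. cerevisiae delta sfp1, 50 to 52, 53 to 54 and 45 to 48 in S. paradoxus in log phase, at 30 and at 60 min, 51 to 53 and 7 to 13 for 60 against 30 min in wild type and delta sfp1, and 19 to 28 for their difference. They ranged from 49 to 52 in delta CAGL0M09955g, 41 to 45 in delta Scas551.1, 15 to 27 in delta Scas719.24, 43 to 45 in K. lactis and 8 to 15 in S. pombe. HA tagged Sfp1 and delta CAGL0D00682g gave 0 each time. Ranges were 48 to 52 and 20 to 25 between the C. glabrata and between the N. castellii deletions. Against S. cerevisiae they were 13 to 23 in S. paradoxus, 19 to 23 and 40 to 45 in delta CAGL0M09955g and delta CAGL0D00682g, 15 to 23 and 30 to 36 in delta Scas551.1 and delta Scas719.24, 22 to 26 in K. lactis and 35 to 40 in S. pombe.

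Whether libraries of the same letter were paired is not stated. Their deviations from the group means had correlations from -0.174 to 0.086. Such values cannot exclude pairing, since in shallow libraries the deviations are largely counting noise. With the replicate block, called members were 48 in S. cerevisiae delta sfp1 and 11 in S. pombe, against 49 and 14 without it, and 26 against 28 for the S. paradoxus difference between times. Depth limits the S. paradoxus lag phase most.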
